A study of Mus musculus with 12 samples.

Results

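The comparison described here sets MMT cells that were given a control siRNA by transfection (siCtrl, 3 arrays) against MMT cells without any siRNA (untransfected, 2 arrays). Groups were taken from the sample titles, and these 5 arrays are among 12 of the series. MMT is a line from a mouse mammary tumour (ATCC CCL-51), grown in DMEM with fetal calf serum. Per the design text, the untransfected cells serve to show what the transfection protocol itself changes, and replicates are biological. The other 7 arrays, of cells given an siRNA against Erm (siErm, 3) or Pea3 (siPea3, 4), entered the fit only to estimate the spread between arrays, and their levels are given at the end. The untransfected cells differ from the siCtrl cells in both the transfection and the siRNA, and no group of cells treated with reagent alone is among the 12. The transfection reagent, the dose, the time after transfection and the siRNA sequence were not found in the labels, so effects of reagent and of siRNA cannot be told apart. Arrays are named below by group and replicate number, for example siCtrl 2, and signals are in the arbitrary linear units of the deposited values.

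Short double-stranded RNA delivered to the cytosol or to endosomes can be read by cells as a sign of virus infection. Double-stranded RNA of various lengths is bound by the cytosolic helicases RIG-I and MDA5 (the product of Ifih1), the endosomal receptor TLR3 and the kinase PKR (Eif2ak2). RIG-I, MDA5 and TLR3 activate the transcription factor IRF3 through the kinases TBK1 and IKK-epsilon (Ikbke), and NF-kB through related kinases, while PKR halts translation. IRF3 and NF-kB switch on the gene of interferon beta. Secreted interferon then acts through its receptor to switch on a large set of antiviral genes. IRF7 adds most interferon alpha genes in a second wave.

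The 5 arrays detected 13006 to 13836 of 33012 probes each (39.4% to 41.9%), where detection means signal at 3 or more times its noise. In all, 16724 probes were tested, 9182 of them with 1 gene symbol. The members of each group were not equally alike. Of the tested probes, 4469 lay more than 2-fold apart between the 2 untransfected arrays. On siCtrl 2, 194 probes that read at least 20 on both other siCtrl arrays were more than 4-fold lower than on either, against 2 and 7 such probes on siCtrl 1 and siCtrl 3. One of them was Aldoa, the glycolytic enzyme aldolase, at 352, 4.16 and 264 on the siCtrl arrays and 413 and 443 on the untransfected ones. Of these 194 probes 0 were called, and 14 belong to the gene lists used below, among them the interferon pathway genes Irf7 and Ifih1. Values without siCtrl 2 are therefore given for some genes and lists below. Medians of other lists moved too, that of glycolysis from -0.55 to -0.093 without siCtrl 2. Among the arrays that only inform the spread, siPea3 2 stood apart, with 34.2% of its probes detected against 38.2% to 41.9% on the other 11. On it 82 probes at 20 or more on the other siPea3 arrays were over 4-fold lower than on any of them, 39 of them among the 194 that were low on siCtrl 2. That count leaves out probes that were alike low on siPea3 1 and 2. Some of the 194 also read low on siErm 2 and siPea3 1. Aldoa read 10.3 on siErm 2, against 356 and 132 on siErm 1 and 3. On siPea3 1 it read 20.6, against 120 and 90.3 on siPea3 3 and 4. Irf7 was not low on siErm 2, at 249 against 300 and 319 on siErm 1 and 3.

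**Figure D1:**
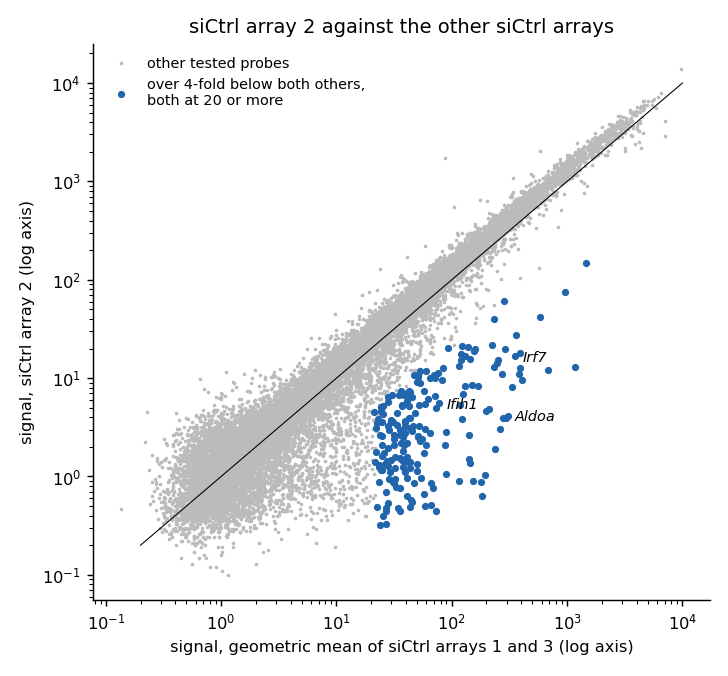
Signal on siCtrl 2 (vertical, log axis) against the geometric mean of siCtrl 1 and siCtrl 3 (horizontal, log axis), 1 point per tested probe, with the line of equality. The 194 blue points are probes at 20 or more on both other arrays and more than 4-fold lower on siCtrl 2.

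Most of the probes that passed the test were higher in the siCtrl cells, while over all tested probes 7743 estimates were higher and 8981 lower. In limma over all 16724 tested probes, 151 probes rose (0.903%) and 20 fell (0.12%) at an adjusted p under 0.05, 171 in all (1.02%). Probes with 1 gene symbol made up 98 of the rises (1.07% of 9182) and 10 of the falls (0.109%), 108 together (1.18%), for 97 and 10 distinct genes (1.21% of 8864 genes called). A further 58 called probes had no symbol and 5 had several. Each of the 171 had its siCtrl arrays on one side of both untransfected arrays, which was true of 4473 tested probes in all. At an unadjusted p under 0.05 in the same fit, 1048 of the 16724 probes were higher and 858 lower. All 108 calls with 1 symbol exceeded 2-fold, 78 exceeded 4-fold and 25 exceeded 8-fold. The median log2 change was 2.49 among the rises and -2.32 among the falls, against -0.057 over all tested probes. Of the rises, 19 came from probes undetected on both untransfected arrays, and 6 of the falls went to undetected levels on all siCtrl arrays. For such probes the fold is written with "at least", taking the undetected arrays at their own signal or at the lowest signal of any detected probe, whichever was higher. It is a ratio of geometric means, and equals the fitted fold where the undetected signals were the higher of these values.

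These calls rest on few arrays. The count was 99, 85 and 92 without siCtrl 1, 2 and 3, and 82 and 336 without untransfected 1 and 2. Without untransfected 2, 188 probes rose and 148 fell. Of the 108 calls with 1 symbol, 25 held in all 5 of these fits. With only the 5 arrays in the fit, 0 probes were called by limma (1445 had an unadjusted p under 0.05), so every call below leans on the spread within the siErm and siPea3 groups. Without siPea3 2, an omission chosen after seeing the data, 177 probes were called, 151 of them among the 171. Of the genes named below, Csf3, Dll4, Ikbke, Ivl, Oas2, Prmt1 and Psmb10 then lost their call (0.05003 to 0.0627), and Gbp9, Ifna12 and Mx2 gained one (0.0272 to 0.0441). For each gene, the arrays whose omission ended its call are named with the adjusted p of that fit in parentheses.

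**Figure D2:**
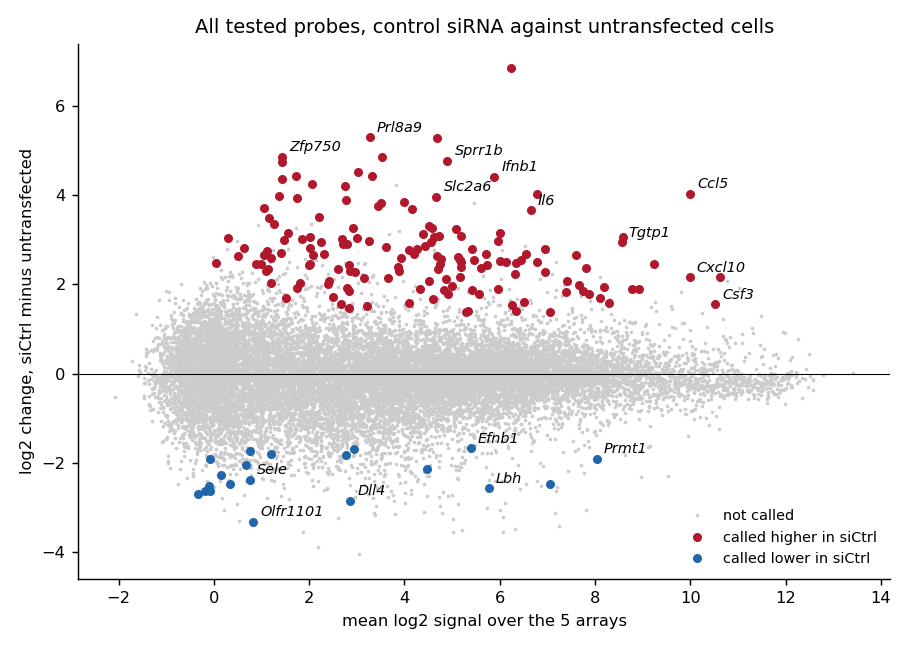
Log2 change of siCtrl against untransfected cells (vertical) by mean log2 signal over the 5 arrays (horizontal), 1 point per tested probe. The 151 called rises (red) reach the brightest probes, such as Ccl5, and the 20 called falls (blue) are fewer and mostly dim.

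Genes of type I interferon rose. Ifnb1, the gene of interferon beta, read 15.8 and 5.57 on the untransfected arrays and 218, 166 and 224 on the siCtrl arrays (log2 4.42 ± 0.78, adjusted p = 0.0252). The probe for Ifna4, an interferon alpha gene, read 2.93 and 0.62 on the untransfected arrays and 25.9, 11.4 and 27.6 on the siCtrl arrays (log2 3.90 ± 0.74, adjusted p = 0.0353). Both genes were low on the untransfected arrays and far higher on each siCtrl array. Their groups did not overlap, which was true of every called probe. Ifna genes are so alike that 1 probe may read several. Probes for Ifna12 (2.08 and 0.81 against 9.44, 5.92 and 8.26, adjusted p = 0.0617) and Ifna2 (1.49 and 1.58 against 9.81, 5.07 and 14.5, adjusted p = 0.0725) also read higher on all siCtrl arrays without passing. Over all 8864 genes 1.09% were called higher and 0.113% lower, which is the background for this list and every list below. Of the 17 tested genes of the interferons, their receptors and signalling, 3 rose and 0 fell. Their median log2 change was 0.27, against -0.047 over all genes. The third was Irf1, a factor that binds interferon-response elements, at 68.5 and 82.2 against 181, 231 and 180.0 (log2 1.38 ± 0.25, adjusted p = 0.0276). Socs3 and Socs1, inhibitors of cytokine signalling, had estimates of 1.15 ± 0.35 and 0.89 ± 0.38 on the log2 scale (adjusted p = 0.207 and 0.399). Ifnb1 lost its call without any 1 of the 5 arrays (0.0552 to 0.0922), and Ifna4 without siCtrl 1, 2 or 3 or untransfected 2 (0.0546 to 0.115). Irf1 lost its call without siCtrl 1, 2 or 3 or untransfected 1 (0.063 to 0.152). Ifnb1 had a log2 change of 5.17 without untransfected 1 and 3.67 without untransfected 2, and Ifna4 of 5.02 without untransfected 1 and 2.78 without untransfected 2.

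The promoters of the induced genes can be set beside these values, because interferon regulatory factors and NF-kB bind known letters. Promoters (250 bases before to 50 after the start site) came from the RefSeq table for GRCm38.p6. A core of the interferon-stimulated response element (GAAA, any 2 bases, GAAA) and an NF-kB motif (GGGA, any 2 bases, TTCC) were searched on both strands. Of 27025 promoters 3.99% held the first, 1.63% the second and 5.55% either, and of the 7219 promoters of tested genes 5.47% held either. Promoters were found for 72 of the 97 genes that rose, and 19.4% of them held either motif. Among the 16 that belong to the RNA sensor, interferon, GTPase, MHC, chemokine and cytokine lists the share was 50%. Among the other 56 it was 10.7%. No share was computed for uncalled members of these lists. The 50% therefore cannot tell the called members from the lists as a whole. The 9 promoters found for genes that fell held neither. A match is only a match of letters and was not tested as a binding site. The promoters of 4 genes that rose are shown, 2 interferon genes, a cytokine and a chemokine, with the motif matches in capitals. Ifnb1 lies at chr4:88522745-88523044 (minus strand) with the NF-kB match starting 116 bases before the start site, Ifna4 at chr4:88841566-88841865 (plus strand) with response-element matches at 208 and 118 bases, Il6 at chr5:30012864-30013163 (plus strand) with an NF-kB match at 44 bases, and Cxcl10 at chr5:92348840-92349139 (minus strand) with a response-element match at 213 and an NF-kB match at 159 bases.
Ifnb1: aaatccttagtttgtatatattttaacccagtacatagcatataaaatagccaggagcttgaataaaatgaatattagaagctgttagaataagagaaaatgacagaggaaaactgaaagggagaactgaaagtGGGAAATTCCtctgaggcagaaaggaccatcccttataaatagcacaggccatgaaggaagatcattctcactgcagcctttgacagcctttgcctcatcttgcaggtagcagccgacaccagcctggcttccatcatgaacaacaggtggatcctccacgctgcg
Ifna4: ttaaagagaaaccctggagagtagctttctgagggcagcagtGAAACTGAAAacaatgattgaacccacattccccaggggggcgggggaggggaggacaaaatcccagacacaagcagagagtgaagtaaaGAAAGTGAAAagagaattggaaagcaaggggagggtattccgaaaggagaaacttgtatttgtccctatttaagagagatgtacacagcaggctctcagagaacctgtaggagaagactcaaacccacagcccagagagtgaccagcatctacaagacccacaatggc
Il6: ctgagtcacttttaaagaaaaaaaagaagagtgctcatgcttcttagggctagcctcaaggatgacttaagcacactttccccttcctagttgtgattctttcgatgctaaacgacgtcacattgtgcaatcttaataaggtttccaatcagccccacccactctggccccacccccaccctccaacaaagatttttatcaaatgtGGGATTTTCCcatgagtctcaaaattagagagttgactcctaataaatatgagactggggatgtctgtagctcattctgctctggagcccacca
Cxcl10: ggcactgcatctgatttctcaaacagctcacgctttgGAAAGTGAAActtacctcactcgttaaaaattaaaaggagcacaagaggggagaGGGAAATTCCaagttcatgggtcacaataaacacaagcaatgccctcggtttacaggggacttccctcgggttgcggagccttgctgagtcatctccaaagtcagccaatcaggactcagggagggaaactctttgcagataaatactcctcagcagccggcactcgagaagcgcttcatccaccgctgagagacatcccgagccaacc

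Of 10 tested genes of the RNA sensors and their adaptors, 1 rose and 0 fell (median log2 0.38). It was Ikbke, the gene of the kinase IKK-epsilon, at 11.3 and 17.9 against 43.8, 74.6 and 51.2 (log2 1.95 ± 0.40, adjusted p = 0.0497). Irf5, another interferon regulatory factor, had the next smallest p, at 3.82 and 5.71 against 11.4, 20.7 and 11.8 (adjusted p = 0.103). Eif2ak2, the gene of PKR, read 129 and 101 against 116, 172 and 155 and Tbk1 47.3 and 43.8 against 59.8, 70.9 and 54.6, with adjusted p = 0.66 and 0.652. Irf3, the factor that these kinases activate, read 69.5 and 68.1 against 67.2, 88.7 and 61.5, with its groups overlapping. The other 3 genes named here were lowest on siCtrl 2 among the siCtrl arrays. Ifih1 (MDA5) read 43.2 and 46.6 on the untransfected arrays and 74.2, 5.53 and 82.4 on the siCtrl arrays, and its log2 change was -0.47 ± 1.02, or 0.80 without siCtrl 2 (adjusted p = 0.758). Irf7 read 77.5 and 121 on the untransfected arrays and 362, 16.7 and 344 on the siCtrl arrays, with a log2 change of 0.40 ± 1.10, or 1.86 without siCtrl 2 (adjusted p = 0.283). Tlr3 read 8.23 and 22.6 on the untransfected arrays and 29.9, 12 and 33.2 on the siCtrl arrays, with a log2 change of 0.74 ± 1.01, or 1.21 without siCtrl 2 (adjusted p = 0.792). For Irf7 and Ifih1, siCtrl 1 and 3 thus lay above both untransfected arrays and siCtrl 2 below both, and neither passed with or without it. No probe for Ddx58, Dhx58, Oas1a or Mx1 was matched here. Ikbke lost its call without any 1 of the 5 arrays (0.0504 to 0.295).

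Antiviral genes that interferon induces were mostly higher, although few passed. Of 27 tested, 4 rose and 0 fell, 25 had a higher estimate (all 27 without siCtrl 2), and 18 had an unadjusted p under 0.05 (median log2 0.92, and 0.75 without siCtrl 2). Oasl1, related to the oligoadenylate synthetases, read 21.7 and 13.8 on the untransfected arrays and 83, 283 and 155 on the siCtrl arrays (log2 3.15 ± 0.52, adjusted p = 0.0164). Cmpk2, a mitochondrial nucleotide kinase induced by interferon, read 22.4 and 37 on the untransfected arrays and 109, 223 and 172 on the siCtrl arrays (log2 2.48 ± 0.36, adjusted p = 0.00924). Oas2, an oligoadenylate synthetase that activates RNase L, read 56.6 and 107 on the untransfected arrays and 219, 392 and 250.1 on the siCtrl arrays (log2 1.84 ± 0.37, adjusted p = 0.0454). Ifit1, which binds viral RNA lacking cap methylation, was already bright without transfection, at 228 and 172 on the untransfected arrays and 602, 882 and 765 on the siCtrl arrays (log2 1.90 ± 0.39, adjusted p = 0.0493). In each of these 4 genes siCtrl 2 was the brightest array. Among the siCtrl arrays it was also the highest for 58.3% of 8803 genes, and for 76 of the 98 rises called with 1 symbol. Members with the next smallest p were Oas1b (13.4 and 18.3 against 32.7, 47.6 and 46.6, adjusted p = 0.0725), Samd9l (173 and 243 against 413, 608 and 417, 0.0946), Mx2 (33.6 and 32.2 against 85.5, 79.4 and 129, 0.113) and Usp18 (456 and 370.0 against 771, 1239.8 and 719, 0.128). Isg15, a ubiquitin-like modifier, read 1117 and 1512 against 2027, 2984 and 1963 (log2 0.81 ± 0.30, adjusted p = 0.322). Its activating enzyme Uba7, which no list holds, rose on both of its probes, by a log2 change of 2.50 ± 0.50 and 2.45 ± 0.44 (adjusted p = 0.0446 and 0.0265). Without siCtrl 2, siCtrl 3 or untransfected 1 both probes missed the threshold (0.0796 to 0.24), the second also without siCtrl 1 (0.055). Their log2 changes were 1.56 and 1.69 without untransfected 1, and 3.43 and 3.20 without untransfected 2. Oasl1 lost its call without siCtrl 3 or untransfected 1 or 2 (0.0577 to 0.0647), and Cmpk2 without untransfected 1 (0.0782). Oas2 lost its call without siCtrl 1, 2 or 3 or untransfected 1 (0.0774 to 0.287), and Ifit1 without any 1 of the 5 arrays (0.0928 to 0.162).

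The guanylate-binding proteins and immunity-related GTPases, interferon-induced enzymes that attack vacuoles of intracellular microbes, had the largest share of calls among the 34 lists, 6 of 10. All 10 tested genes had a higher estimate, with no overlap between the groups (26.6% of all genes had none), 0 fell, and the median log2 change was 2.09, or 2.00 without siCtrl 2. Tgtp1 rose most, from 96.2 and 127 to 859, 1022 and 705 (log2 2.94 ± 0.33, adjusted p = 0.00188). Iigp1 read 26.6 and 56.3 against 298, 316 and 204 (log2 2.79 ± 0.43, adjusted p = 0.0115) and Ifi47 42.6 and 98 against 335, 569 and 354 (log2 2.66 ± 0.40, adjusted p = 0.0112). Gbp8 read 11.8 and 15.4 against 63.7, 82.9 and 67.5 (log2 2.39 ± 0.27, adjusted p = 0.00198), Gbp2 38.3 and 60.9 against 247, 259 and 199.8 (log2 2.28 ± 0.33, adjusted p = 0.00828) and Igtp 207 and 233 against 805, 935 and 733 (log2 1.90 ± 0.24, adjusted p = 0.00451). In Tgtp1, Gbp8 and Igtp the arrays of each group lay close together. Gbp3, Gbp9, Irgm1 and Irgm2 had log2 estimates of 1.37 ± 0.32, 1.65 ± 0.39, 1.20 ± 0.33 and 1.15 ± 0.40 and did not pass (adjusted p = 0.0803, 0.0832, 0.147 and 0.293). The calls of Tgtp1, Gbp8 and Igtp were kept when any 1 of the 5 arrays was left out. Iigp1 lost its call without untransfected 1 (0.0984), and Ifi47 without untransfected 1 (0.084). Gbp2 lost its call without untransfected 1 (0.0699). Ifi47 had a log2 change of 2.05 without untransfected 1 and 3.26 without untransfected 2.

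Of 12 tested genes of antigen presentation by MHC class I, 1 rose and 0 fell, and 10 had a higher estimate (median log2 0.89). Without siCtrl 2 all 12 were higher, the log2 change of H2-M3 going from -0.15 to 0.89 and that of Tapbp from -0.11 to 0.81. Psmb10, a subunit of the immunoproteasome, read 88.1 and 209.7 on the untransfected arrays and 374, 547 and 411 on the siCtrl arrays (log2 1.69 ± 0.35, adjusted p = 0.0495). Tap2 and Tap1, the peptide transporter, read 28.2 and 53.4 against 97.1, 133 and 79.2 and 29.7 and 72.2 against 139, 88.9 and 128 (adjusted p = 0.197 and 0.299). The class I heavy chains H2-K1 and H2-Q7 read 1209 and 2193 against 3302, 4123 and 2700.1 and 745 and 953 against 1889, 1961 and 1409 (adjusted p = 0.238 and 0.256). Untransfected 1 was below untransfected 2 in all but 1 of the 12 genes. Tapbpl, a chaperone that edits peptides on class I molecules and is not in the list, rose from 14.3 and 16.5 to 87.6, 109.7 and 75.4 (log2 2.55 ± 0.28, adjusted p = 0.00165). The call of Tapbpl was kept when any 1 of the 5 arrays was left out. Psmb10 lost its call without siCtrl 1, 2 or 3 or untransfected 1 (0.099 to 0.264). Psmb10 had a log2 change of 1.06 without untransfected 1 and 2.31 without untransfected 2.

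Of 14 tested chemokine genes 7 rose and 0 fell, and 13 had a higher estimate (median log2 2.16, and 2.20 without siCtrl 2). In 11 of them the groups did not overlap, which was true of 26.6% of all genes. Ccl5, which attracts T cells and monocytes, read 229 and 159 on the untransfected arrays and 2790.0, 3686 and 2988 on the siCtrl arrays (log2 4.04 ± 0.49, adjusted p = 0.0032). Ccl4 read 46.9 and 9.17 against 274, 424 and 334 (log2 4.03 ± 0.79, adjusted p = 0.0405), and the monocyte chemokines Ccl8 and Ccl7 read 6.25 and 2.37 against 62.3, 47.1 and 41 (log2 3.68 ± 0.52, adjusted p = 0.00821) and 246 and 47.4 against 822, 1081 and 831 (log2 3.06 ± 0.59, adjusted p = 0.0378). For Ccl4 and Ccl7, untransfected 1 was several times brighter than untransfected 2. The 3 ligands of the receptor CXCR3, which interferon induces, rose together. Cxcl10 read 431 and 396 on the untransfected arrays and 1543, 2492 and 1628 on the siCtrl arrays (log2 2.16 ± 0.32, adjusted p = 0.00993). Cxcl11 read 203 and 236 against 925, 1612 and 1151 (log2 2.45 ± 0.40, adjusted p = 0.0156) and Cxcl9 15.2 and 14.3 against 89.1, 55.7 and 57.1 (log2 2.16 ± 0.37, adjusted p = 0.0218). Cxcl10 and Cxcl11 were thus already bright without transfection. Cxcl1 and Cxcl2, which attract neutrophils, read 2179.8 and 1306 against 3715, 5082 and 3699 and 13 and 6.57 against 25.2, 68.5 and 38.1 (adjusted p = 0.0617 and 0.106), and Ccl2 read 1764 and 494 against 4056, 2500.3 and 4300.0 (adjusted p = 0.119). Ccrl2, an atypical receptor that binds chemerin and is not in the list, rose from 7.79 and 4.89 to 56.3, 66.5 and 54.9 (log2 3.26 ± 0.29, adjusted p = 0.000715). The calls of Ccl5, Ccl8 and Ccrl2 were kept when any 1 of the 5 arrays was left out. Ccl4 lost its call without siCtrl 1, 2 or 3 or untransfected 2 (0.0937 to 0.142), and Ccl7 without siCtrl 1, 2 or 3 or untransfected 2 (0.0884 to 0.135). Cxcl10 lost its call without untransfected 1 (0.0549), and Cxcl11 without siCtrl 2 or 3 or untransfected 1 (0.0507 to 0.103). Cxcl9 lost its call without siCtrl 1 or 3 or untransfected 1 or 2 (0.0538 to 0.103). Ccl4 had a log2 change of 5.21 without untransfected 1 and 2.85 without untransfected 2, and Ccl8 of 4.38 without untransfected 1 and 2.98 without untransfected 2. Ccl7 had a log2 change of 4.25 without untransfected 1 and 1.88 without untransfected 2.

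Cytokine genes did not move one way. Of 13 tested, 3 rose and 0 fell, yet 9 had a lower estimate, and the median log2 change was -0.47 (0.41 without untransfected 1). Il6, the gene of interleukin 6, read 38.6 and 12.4 on the untransfected arrays and 217, 478 and 206 on the siCtrl arrays (log2 3.66 ± 0.55, adjusted p = 0.0101). Il15, which sustains natural killer cells, read 12.5 and 16.7 on the untransfected arrays and 49.5, 58.1 and 42.2 on the siCtrl arrays (log2 1.78 ± 0.27, adjusted p = 0.0112). Csf3, the granulocyte growth factor, was bright throughout, at 838 and 709 on the untransfected arrays and 2492, 2578 and 1793 on the siCtrl arrays (log2 1.55 ± 0.31, adjusted p = 0.0405). Csf2, the related factor for granulocytes and macrophages, read 69.3 and 11.4 against 208, 185 and 223 and did not pass (adjusted p = 0.0546). Il11 and Il10 had negative estimates, with signals of 1796 and 692 against 375, 552 and 232 and 2.15 and 1.5 against 0.51, 0.26 and 0.5 (adjusted p = 0.198 and 0.12). Il18bp, the secreted inhibitor of interleukin 18, is not in the list and rose from 3.97 and 9.19 to 33.2, 48 and 45 (log2 2.78 ± 0.43, adjusted p = 0.0117). Tnf was undetected and was not tested. The call of Il6 was kept when any 1 of the 5 arrays was left out. Il15 lost its call without untransfected 1 (0.0854), and Csf3 without any 1 of the 5 arrays (0.0577 to 0.14). Il18bp lost its call without untransfected 1 (0.0962). Il6 had a log2 change of 4.48 without untransfected 1 and 2.85 without untransfected 2, and Il18bp of 2.18 without untransfected 1 and 3.39 without untransfected 2.

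Of the 14 tested genes of NF-kB subunits and feedback, 0 were called, and 3 were higher at an unadjusted p under 0.05 (median log2 -0.088, and -0.66 to 0.36 with 1 of the 5 arrays left out). Birc3 read 47.7 and 40.2 against 92.2, 114 and 74.3, Nfkbie 54.1 and 78.3 against 132, 170.1 and 96.7 and Bcl3 20.2 and 44.9 against 81.8, 91.9 and 57 (adjusted p = 0.191, 0.235 and 0.295). Of 11 genes of TNF superfamily ligands and receptors, 0 were called in limma (3 at an unadjusted p under 0.05, all higher). Fas, the death receptor, read 3.72 and 4.42 against 33.1, 8.13 and 24.9, higher on each siCtrl array (log2 2.22 ± 0.69, adjusted p = 0.225, and 2.82 without siCtrl 2, adjusted p = 0.133). Tlr2, a receptor for bacterial lipopeptides, rose from 23.6 and 13.9 to 103, 203 and 141 (log2 2.98 ± 0.37, adjusted p = 0.0042). Zfp36, which destabilises cytokine mRNAs, rose from 18.5 and 20.5 to 68.5, 92.6 and 57.7 (log2 1.88 ± 0.35, adjusted p = 0.0318), and Cebpd, a factor of the acute phase, from 90.5 and 109 to 292, 462 and 340.0 (log2 1.85 ± 0.32, adjusted p = 0.0218). These last 3 are in none of the lists. The call of Tlr2 was kept when any 1 of the 5 arrays was left out. Zfp36 lost its call without any 1 of the 5 arrays (0.0569 to 0.164), and Cebpd without siCtrl 2 or 3 or untransfected 1 (0.062 to 0.137).

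**Figure D3:**
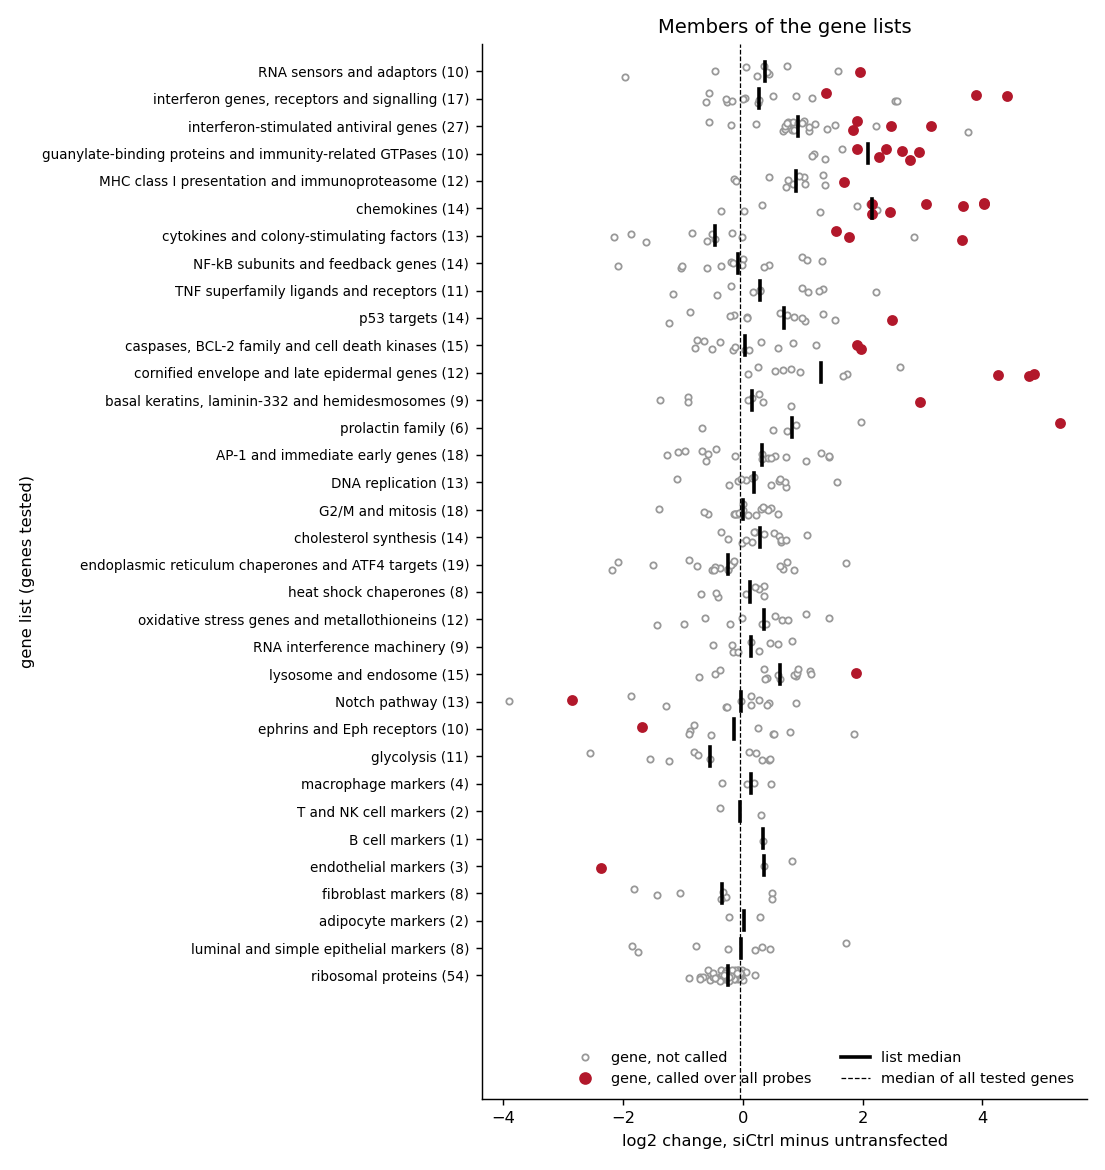
Log2 change of siCtrl against untransfected cells for every tested member of the 34 gene lists (number tested in parentheses), 1 point per gene, red where called over all probes, with each list's median as a bar. The guanylate-binding protein and chemokine lists have the highest medians, 2.09 and 2.16, and the dashed line marks the median of all genes at -0.047.

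Stress and death genes gave few calls. Of 14 p53 targets, 1 rose and 0 fell, and 10 had a higher estimate (12 without siCtrl 2). Their median log2 change was 0.68, 0.82 without siCtrl 2 and 0.061 without untransfected 2. Btg2, an antiproliferative gene, read 32.5 and 18.8 on the untransfected arrays and 159, 127 and 134 on the siCtrl arrays (log2 2.50 ± 0.33, adjusted p = 0.00504). Cdkn1a, the cell cycle inhibitor p21, read 259.9 and 263 against 680.2, 462 and 487 (log2 1.03 ± 0.32, adjusted p = 0.225), and Perp and Trp53inp1 read 1.92 and 1.07 against 6.23, 5.08 and 2.3 and 198 and 49.9 against 234, 219 and 310.2 (adjusted p = 0.199 and 0.311). Among 15 caspases, BCL-2 family members and death kinases, 2 rose and 0 fell. Casp1, the inflammasome caspase, read 84.6 and 92.4 on the untransfected arrays and 286, 496 and 299 on the siCtrl arrays (log2 1.98 ± 0.30, adjusted p = 0.0112). Bcl2l11, which encodes the death activator Bim, read 10.1 and 8.23 on the untransfected arrays and 32.3, 42.6 and 28.9 on the siCtrl arrays (log2 1.90 ± 0.30, adjusted p = 0.013). Casp4, the mouse caspase that senses cytosolic lipopolysaccharide, read 43.2 and 21.8 against 72.3, 79.8 and 62.5 (adjusted p = 0.111). Gadd45b, a stress gene outside the lists, rose from 21.9 and 22.9 to 175, 97 and 125 (log2 2.52 ± 0.39, adjusted p = 0.0112). The call of Btg2 was kept when any 1 of the 5 arrays was left out. Casp1 lost its call without untransfected 1 (0.0743), and Bcl2l11 without untransfected 1 (0.0543). Gadd45b lost its call without untransfected 1 (0.0754).

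Genes of the outer epidermis were among the largest rises, in a line of mammary origin. Of 12 tested genes of the cornified envelope and late epidermis, all 12 had a higher estimate, 3 rose and 0 fell (median log2 1.31). Without siCtrl 2, 10 of the 12 estimates were higher. Of the list, 18 genes have a probe, and 12 were detected on enough arrays of the series to be tested. Most of those arrays are of transfected cells, so a gene detected only after transfection passes this filter more easily. The count of higher estimates is therefore set in part by the filter. The list's untested genes with a probe, Sprr2f, Sprr2i, Sprr3, Lor, Tgm1 and Tgm3, were undetected on all 5 arrays. So were Krt5, Krt15 and Trp63, untested genes of the basal keratin list below. Zfp750, a transcription factor of terminal keratinocyte differentiation, was undetected without transfection and read 0.3 and 0.43 on the untransfected arrays and 12.6, 6.42 and 14 on the siCtrl arrays (log2 4.86 ± 0.44, adjusted p = 0.00073, at least 24.8-fold). Sprr1b, a small proline-rich envelope protein, read 1.54 and 11 on the untransfected arrays and 187, 124 and 61.1 on the siCtrl arrays (log2 4.77 ± 0.84, adjusted p = 0.0245), and Ivl, the envelope precursor involucrin, read 1.09 and 0.46 on the untransfected arrays and 21.9, 15 and 7.48 on the siCtrl arrays (log2 4.25 ± 0.83, adjusted p = 0.0383). The lowest siCtrl array of Sprr1b was several times above the higher untransfected array. Sprr1a, Sprr2e and Sbsn read 82.5 and 124 against 378, 350.5 and 288, 0.36 and 0.66 against 4.2, 2.92 and 2.21 and 11.6 and 8.59 against 21.8, 51.8 and 28.3 and did not pass (adjusted p = 0.0808, 0.0835 and 0.123). Among 9 basal keratin, laminin and hemidesmosome genes, Krt16, a keratin of stressed epidermis, rose from 5 and 9.39 to 42.4, 63.4 and 55.7 (log2 2.95 ± 0.52, adjusted p = 0.0252). Lce1g, a late envelope gene outside the list, rose by at least 5.45-fold, to 12.5, 17.4 and 12.8 (log2 2.45 ± 0.45, adjusted p = 0.0304). The call of Zfp750 was kept when any 1 of the 5 arrays was left out. Sprr1b lost its call without siCtrl 1 or 2 or untransfected 1 (0.0797 to 0.163), and Ivl without any 1 of the 5 arrays (0.0605 to 0.133). Krt16 lost its call without siCtrl 1, 2 or 3 or untransfected 1 (0.0527 to 0.179), and Lce1g without siCtrl 1, 2 or 3 or untransfected 1 (0.0762 to 0.194). Sprr1b had a log2 change of 3.36 without untransfected 1 and 6.19 without untransfected 2, and Ivl of 4.88 without untransfected 1 and 3.63 without untransfected 2.

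The largest rise of any named gene was that of Prl8a9, a member of the placental prolactin family, which read 0.61 and 1.86 on the untransfected arrays and 17.9, 128 and 32 on the siCtrl arrays (log2 5.30 ± 0.87, adjusted p = 0.0164). Its siCtrl arrays spread widely, siCtrl 2 being the highest. Of 18 family members with a probe 6 were tested under the same filter, and Prl8a9 was the only one called. Prl2a1 read 1.9 and 1.71 against 3.98, 11.5 and 7.71 (adjusted p = 0.222). Prl8a9 lost its call without untransfected 1 (0.148). Prl8a9 had a log2 change of 5.91 without siCtrl 1, 4.49 without siCtrl 2, 4.49 without untransfected 1 and 6.10 without untransfected 2.

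**Figure D4:**
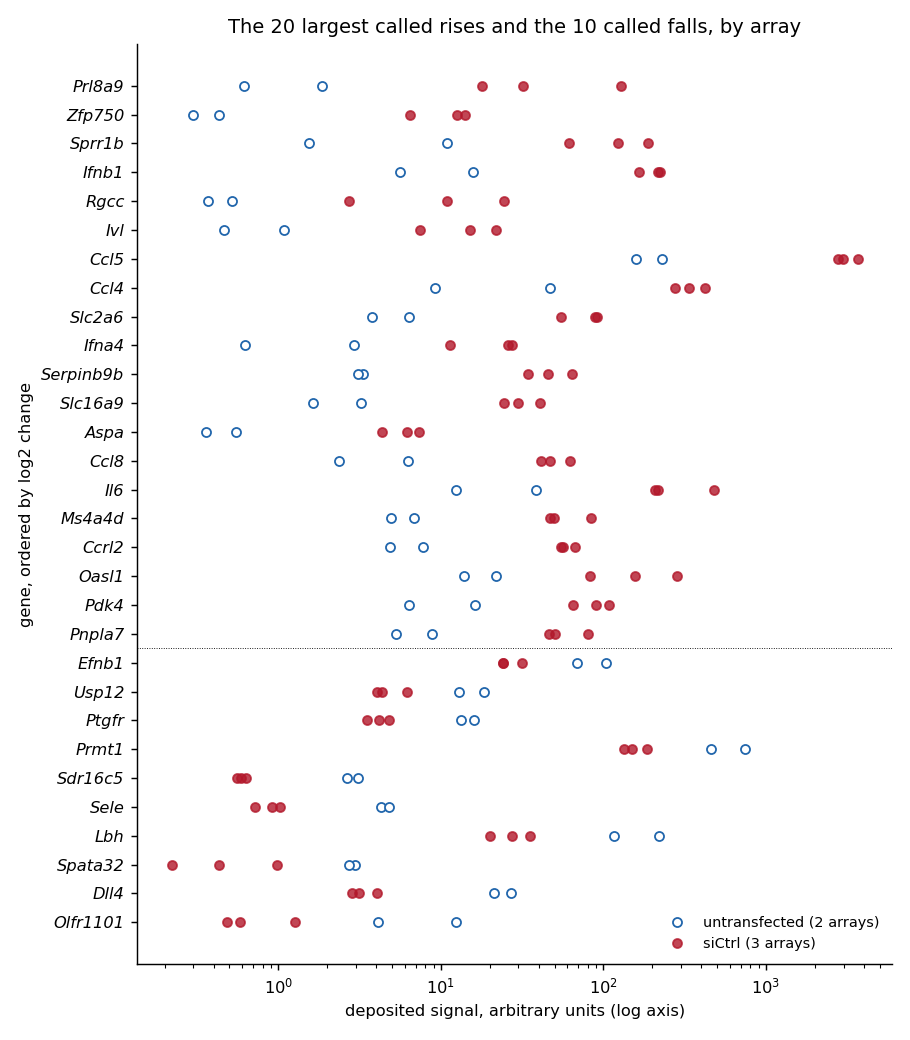
Deposited signal (log axis) on each of the 2 untransfected (open) and 3 siCtrl arrays (filled) for the 20 genes with the largest called rises and the 10 called falls, ordered by log2 change. The groups do not overlap in any row, which was true of all 171 called probes and of 4473 of the 16724 tested.

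Among the 63 genes that rose outside every list were 6 solute carriers. Slc2a6, a member of the glucose transporter family, read 3.74 and 6.39 on the untransfected arrays and 54.8, 91.8 and 88.9 on the siCtrl arrays (log2 3.97 ± 0.41, adjusted p = 0.00142). Slc16a9, of the monocarboxylate transporter family, read 1.64 and 3.2 on the untransfected arrays and 24.6, 40.6 and 29.9 on the siCtrl arrays (log2 3.76 ± 0.35, adjusted p = 0.00073). Slc31a2, related to the copper transporters, read 4.72 and 6.19 against 21.1, 36.8 and 29.1 (log2 2.39 ± 0.31, adjusted p = 0.00504). Slc15a3, a lysosomal transporter of histidine and small peptides, rose from 16.4 and 10 to 67.4, 112 and 50.2 (log2 2.49 ± 0.40, adjusted p = 0.0156). Slc10a6 and the iron exporter Slc40a1 rose with log2 changes of 3.04 ± 0.46 and 2.45 ± 0.44 (adjusted p = 0.0108 and 0.0262). Counted after these values were seen, 6 of 142 tested solute carrier genes rose (4.23%, against 1.09% of all genes) and 0 fell. Pdk4, the kinase that shuts off pyruvate dehydrogenase, read 6.37 and 16.2 against 89.4, 109 and 64.9 (log2 3.07 ± 0.40, adjusted p = 0.00504), and Pnpla7, a lysophospholipase, read 5.27 and 8.82 against 46.5, 79.9 and 50.5 (log2 3.07 ± 0.35, adjusted p = 0.00212). Both were higher on every siCtrl array, as were all called rises. Aspa, which cleaves acetylaspartate, was undetected without transfection and rose by at least 12.3-fold, to 6.21, 7.33 and 4.33 (log2 3.71 ± 0.61, adjusted p = 0.0164). The calls of Slc2a6, Slc16a9, Slc31a2, Pdk4 and Pnpla7 were kept when any 1 of the 5 arrays was left out. Slc15a3 lost its call without untransfected 2 (0.0625), and Slc10a6 without untransfected 1 (0.0861). Slc40a1 lost its call without siCtrl 2 or 3 or untransfected 1 (0.0868 to 0.18), and Aspa without siCtrl 1 or 2 or untransfected 1 (0.0557 to 0.134). Pdk4 had a log2 change of 2.40 without untransfected 1 and 3.75 without untransfected 2.

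Other rises outside the lists included inhibitors of granzyme and related serpins. Serpinb9b read 3.32 and 3.11 on the untransfected arrays and 34.2, 64.4 and 45.4 on the siCtrl arrays (log2 3.85 ± 0.34, adjusted p = 0.000715), and Serpinb9, whose product blocks granzyme B, read 19 and 26.4 against 69.2, 93.8 and 71.5 (log2 1.79 ± 0.35, adjusted p = 0.0371). Ido1, which degrades tryptophan and is induced by interferon gamma, read 1.26 and 2.07 against 9.66, 12.7 and 9.13 (log2 2.69 ± 0.44, adjusted p = 0.0164). Batf2 and Ifi209, both known as interferon-induced, rose by log2 changes of 2.81 ± 0.42 and 2.07 ± 0.38 (adjusted p = 0.0108 and 0.0304). Cfb, complement factor B, read 9.3 and 10.5 against 45.5, 73.8 and 36.9 (log2 2.34 ± 0.39, adjusted p = 0.0164), and Orm2, an acute-phase protein of plasma, 3.55 and 2.17 against 12.6, 18.7 and 10.9 (log2 2.30 ± 0.45, adjusted p = 0.0385). Hdc, the enzyme that makes histamine, read 2.08 and 1.84 against 12.6, 20.3 and 12 (log2 2.89 ± 0.37, adjusted p = 0.00449). Rgcc, a regulator of the cell cycle, was undetected without transfection and read 0.52 and 0.37 on the untransfected arrays and 24.6, 2.7 and 10.9 on the siCtrl arrays (log2 4.36 ± 0.74, adjusted p = 0.0191, at least 20.5-fold), with siCtrl 2 the lowest of the siCtrl arrays. Ms4a4d, of the family of membrane proteins that includes CD20, read 6.84 and 4.94 against 46.5, 83.3 and 49.5 (log2 3.31 ± 0.31, adjusted p = 0.00073). The calls of Serpinb9b, Hdc and Ms4a4d were kept when any 1 of the 5 arrays was left out. Serpinb9 lost its call without siCtrl 1, 2 or 3 or untransfected 1 (0.0889 to 0.219), and Ido1 without siCtrl 2 or untransfected 1 (0.0678 to 0.137). Batf2 lost its call without untransfected 1 (0.0655), and Ifi209 without siCtrl 1, 2 or 3 or untransfected 1 (0.0544 to 0.194). Cfb lost its call without siCtrl 2 or untransfected 1 (0.0546 to 0.108), and Orm2 without any 1 of the 5 arrays (0.0756 to 0.142). Rgcc lost its call without siCtrl 3 or untransfected 1 or 2 (0.0682 to 0.0887). Rgcc had a log2 change of 3.63 without siCtrl 1 and 5.22 without siCtrl 2.

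Histone genes also appeared. Of 35 tested, replication-dependent and variant genes together, 3 rose (8.57%, against 1.09% of all genes, counted after these values were seen). H2bc4 read 26.7 and 35.6 against 262, 209.7 and 142 (log2 2.68 ± 0.34, adjusted p = 0.0042), H2bc13 31.9 and 50.6 against 117, 119.6 and 114 (log2 1.54 ± 0.31, adjusted p = 0.0471), and H1f3, undetected without transfection, reached 9.58, 9.25 and 5.79 (log2 2.46 ± 0.35, adjusted p = 0.00821, at least 5.49-fold). The 35 histone genes had a median log2 change of 0.0031. Gla, the lysosomal alpha-galactosidase, was the 1 gene called of 15 lysosome and endosome genes, 12 of which had a higher estimate, at 24.9 and 33 against 88.3, 165 and 81.5 (log2 1.89 ± 0.37, adjusted p = 0.0383). Ctss, the lysosomal protease cathepsin S of antigen-presenting cells, is outside that list and rose by at least 4.42-fold, to 21.8, 31.6 and 17.6 (adjusted p = 0.013). Rab32, a GTPase of lysosome-related organelles, read 40.3 and 25.2 against 141, 213 and 110.3 (log2 2.22 ± 0.36, adjusted p = 0.0149). The call of H2bc4 was kept when any 1 of the 5 arrays was left out. H2bc13 lost its call without siCtrl 1, 2 or 3 or untransfected 1 (0.113 to 0.282), and H1f3 without untransfected 1 (0.052). Gla lost its call without any 1 of the 5 arrays (0.0539 to 0.219), and Ctss without untransfected 1 (0.103). Rab32 lost its call without untransfected 2 (0.0579).

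The 10 genes that fell had no common list. Lbh, a transcriptional cofactor, read 219 and 116 on the untransfected arrays and 35.2, 27.2 and 20 on the siCtrl arrays (log2 -2.57 ± 0.43, adjusted p = 0.0179). Prmt1, the main arginine methyltransferase, read 739 and 456 on the untransfected arrays and 184, 134 and 149.7 on the siCtrl arrays (log2 -1.91 ± 0.39, adjusted p = 0.0493). Dll4, a Notch ligand, read 26.8 and 21.1 on the untransfected arrays and 4.02, 2.85 and 3.13 on the siCtrl arrays (log2 -2.85 ± 0.59, adjusted p = 0.0492). In the Notch list, 1 of 13 genes thus fell and 0 rose, and Nrarp, a Notch target and feedback inhibitor, and the ligand Jag1 read 122 and 53.9 against 28, 21.8 and 17.9 and 61.4 and 8.6 against 4.1, 0.72 and 1.24 without passing (adjusted p = 0.0585 and 0.0832). Efnb1, the membrane ligand ephrin B1, read 68.5 and 104 on the untransfected arrays and 24.2, 31.5 and 23.9 on the siCtrl arrays (log2 -1.68 ± 0.31, adjusted p = 0.0299) and was the 1 gene called of 10 ephrins and Eph receptors. Usp12, a deubiquitinase, and Ptgfr, the receptor of prostaglandin F2 alpha, fell to undetected levels from 18.4 and 12.9 and 13.3 and 16, by at least 3.22-fold and 3.54-fold (adjusted p = 0.0266 and 0.0334). The other 4 read 12.3 or less on the untransfected arrays. Sdr16c5, an epidermal retinol dehydrogenase, read 3.09 and 2.65 against 0.56, 0.63 and 0.59 (at least 4.83-fold lower, adjusted p = 0.0042). Sele, the adhesion molecule E-selectin, read 4.29 and 4.8 against 0.91, 1.02 and 0.72 (at least 5.19-fold lower, adjusted p = 0.00704). Spata32, named for spermatogenesis, read 2.94 and 2.72 against 0.98, 0.22 and 0.43 (at least 5.15-fold lower, adjusted p = 0.0318), and the olfactory receptor Olfr1101 4.08 and 12.3 against 1.27, 0.58 and 0.48 (at least 10-fold lower, adjusted p = 0.0493). In all 4 genes each siCtrl array lay below both untransfected arrays, as in every called fall. The calls of Sdr16c5 and Sele were kept when any 1 of the 5 arrays was left out. Lbh lost its call without siCtrl 2 or 3 or untransfected 1 (0.0628 to 0.148), and Prmt1 without siCtrl 1, 2 or 3 or untransfected 1 (0.0978 to 0.295). Dll4 lost its call without any 1 of the 5 arrays (0.0848 to 0.244), and Efnb1 without any 1 of the 5 arrays (0.0537 to 0.0997). Usp12 lost its call without siCtrl 1 or 2 or untransfected 1 (0.0958 to 0.171), and Ptgfr without any 1 of the 5 arrays (0.0717 to 0.114). Spata32 lost its call without siCtrl 2 or 3 or untransfected 1 or 2 (0.0546 to 0.164), and Olfr1101 without any 1 of the 5 arrays (0.0551 to 0.162). Olfr1101 had a log2 change of -4.12 without untransfected 1 and -2.53 without untransfected 2.

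In 18 of the 34 lists 0 genes were called. None of the RNA interference genes passed, and 0 of 9 had an unadjusted p under 0.05. Dicer1, which makes small RNAs, read 10.6 and 12 against 16.9, 18.8 and 11.5 (adjusted p = 0.621), and Ago2, the slicer Argonaute, was near background at 2.34 and 0.51 against 0.76, 0.68 and 1.79. The 54 ribosomal protein genes had a median log2 change of -0.24 with 52 estimates lower and 0 called in limma (2 at an unadjusted p under 0.05, both lower). Without siCtrl 3, 34 were lower and the median was -0.14, and with quantile normalization it was -0.11. Replication, mitosis, heat shock, oxidative stress, glycolysis and endoplasmic reticulum genes gave 0 calls. Ccne1, the G1 cyclin E1, came nearest, at 32.5 and 65.1 against 121, 173 and 121 (adjusted p = 0.0686). Sod2, the mitochondrial superoxide dismutase that NF-kB induces, read 170.1 and 142 against 328, 712 and 320.1 (adjusted p = 0.12).

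The 2 untransfected cultures differed from each other in mitotic and sterol genes, which limits what these lists can show. All 14 tested genes of cholesterol synthesis were lower on untransfected 1, by a median log2 difference of -2.07, against 0.22 over all genes. Idi1, an enzyme of the isoprenoid steps, read 14.3 and 258 on the untransfected arrays and 90.5, 209 and 112 on the siCtrl arrays, and Hsd17b7, a later enzyme, 12.8 and 48.7 on the untransfected arrays and 30.6, 56.7 and 33.4 on the siCtrl arrays. The siCtrl arrays thus lay between the untransfected ones or near the higher one. The list's median change against untransfected cells was 0.28, but -0.79 without untransfected 1 and 1.20 without untransfected 2. Of the 18 genes of G2 and mitosis, 17 were lower on untransfected 1 (median -0.93), and Aurkb, a mitotic kinase, read 69 and 339.5 against 223, 260.0 and 208 on the siCtrl arrays. Of 13 DNA replication genes, 6 were higher on untransfected 1 (median -0.13). The p53 targets ran the other way, with 11 of 14 higher on untransfected 1 (median 0.82). Chac1, a target of ATF4, and Myc read 1069.5 and 113 and 983 and 223 without transfection and 137, 138 and 97.8 and 156, 303 and 154 with it, so that only untransfected 1 stood apart.

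Markers of blood, endothelial and fat cells gave little signal. The summed signal of the macrophage markers was 53 to 75.4 on the untransfected arrays and 49.6 to 85.2 on the siCtrl arrays, and 5 of the 8 with a probe (Adgre1, Itgam, Aif1, Fcgr1 and Ptprc) were undetected on all 5. For T and natural killer cells the sums were 9.94 to 12.6 and 9.04 to 14.6, with Cd3d, Cd3e, Cd3g, Cd8b1, Zap70, Prf1 and Gzmb undetected. B cell markers summed to 3.68 to 6.69 and 3.98 to 4.92, with Ms4a1, Pax5 and Cd22 undetected. The endothelial sums were 9.33 to 10.3 and 5.77 to 7.94, with Kdr, Tie1, Vwf and Emcn undetected, while Sele is the gene given above as fallen. The adipocyte sums were 5.88 to 7.92 and 7.62 to 9.46, with Lep, Cidec and Pparg undetected. Fibroblast markers were bright, with 9 of 10 detected and sums of 9338 to 10091 on the untransfected and 5816 to 9439 on the siCtrl arrays. Vim, the mesenchymal filament vimentin, read 6209.6 and 8068 against 5555, 6584 and 4469, Dcn, the matrix proteoglycan decorin, 1910.0 and 868 against 1987, 2559 and 1169 and Fn1, fibronectin, 1907 and 373 against 326, 261 and 159.9 (adjusted p = 0.641, 0.717 and 0.318). Of the 8 fibroblast markers tested 0 were called, and 6 had a lower estimate. For the label of a mammary tumour line, 8 of the 13 luminal and simple epithelial markers with a probe were detected (Krt7, Krt8, Krt18, Krt19, Cldn3, Cldn4, Gata3 and Csn3), while Cdh1, Epcam, Cldn7, Esr1 and Csn2 were undetected on all 5 arrays. The list summed to 1892 to 1985 on the untransfected and 921 to 1414 on the siCtrl arrays. Of 8 tested 0 were called, and 4 had a higher and 4 a lower estimate (median log2 -0.025). At an unadjusted p under 0.05 in limma, 1 was higher and 3 were lower. Krt8 and Krt18, keratins of simple epithelium, read 1173 and 1468 against 678, 985 and 657 and 501 and 312 against 97.2, 179 and 95 (adjusted p = 0.396 and 0.0686). In these cultures, a change in the share of cells of 1 kind and a change in RNA per cell cannot be told apart.

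The PEA3 group factors that the other siRNAs target were not called. Etv4 read 40.7 and 41.8 against 36, 43.1 and 31.5 and Etv1 10.1 and 10.3 against 13.2, 14.7 and 6.36. Etv5 read 23.7 and 1.05 against 2.77, 1.16 and 0.99 (adjusted p = 0.545), so that untransfected 1 alone was bright.

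Levels on the arrays of the other siRNAs are given as values only, since any comparison of them with untransfected cells would share the same 2 untransfected arrays. Ifnb1 read 753, 244 and 264 on the siErm arrays and 169, 1165, 294 and 224 on the siPea3 arrays. Ccl5 read 3557, 4303 and 3496 on the siErm arrays and 1037, 3936, 3437 and 2378 on the siPea3 arrays, and Cxcl10 1509, 1732 and 1469.8 on the siErm arrays and 1314, 2174, 1391 and 1228 on the siPea3 arrays. Every one of these lay above both untransfected arrays. Il6 read 209, 298 and 221 on the siErm arrays and 731, 408, 1044 and 638 on the siPea3 arrays, and Tgtp1 862, 875 and 716 on the siErm arrays and 849, 413, 671 and 602 on the siPea3 arrays. Zfp750 read 10.4, 11.1 and 16.7 on the siErm arrays and 24.4, 31.9, 53.6 and 47.2 on the siPea3 arrays, Btg2 132, 188 and 155 on the siErm arrays and 282, 275, 427 and 394 on the siPea3 arrays, and Lbh, which fell with the control siRNA, 33.6, 32.5 and 20.6 on the siErm arrays and 22.3, 27, 15.2 and 12.4 on the siPea3 arrays. For Irf7 the values were 299.7, 249 and 319 on the siErm arrays and 116, 70.4, 211 and 269 on the siPea3 arrays, so that siCtrl 2 was the lowest of all 12 arrays for that gene.

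**Figure D5:**
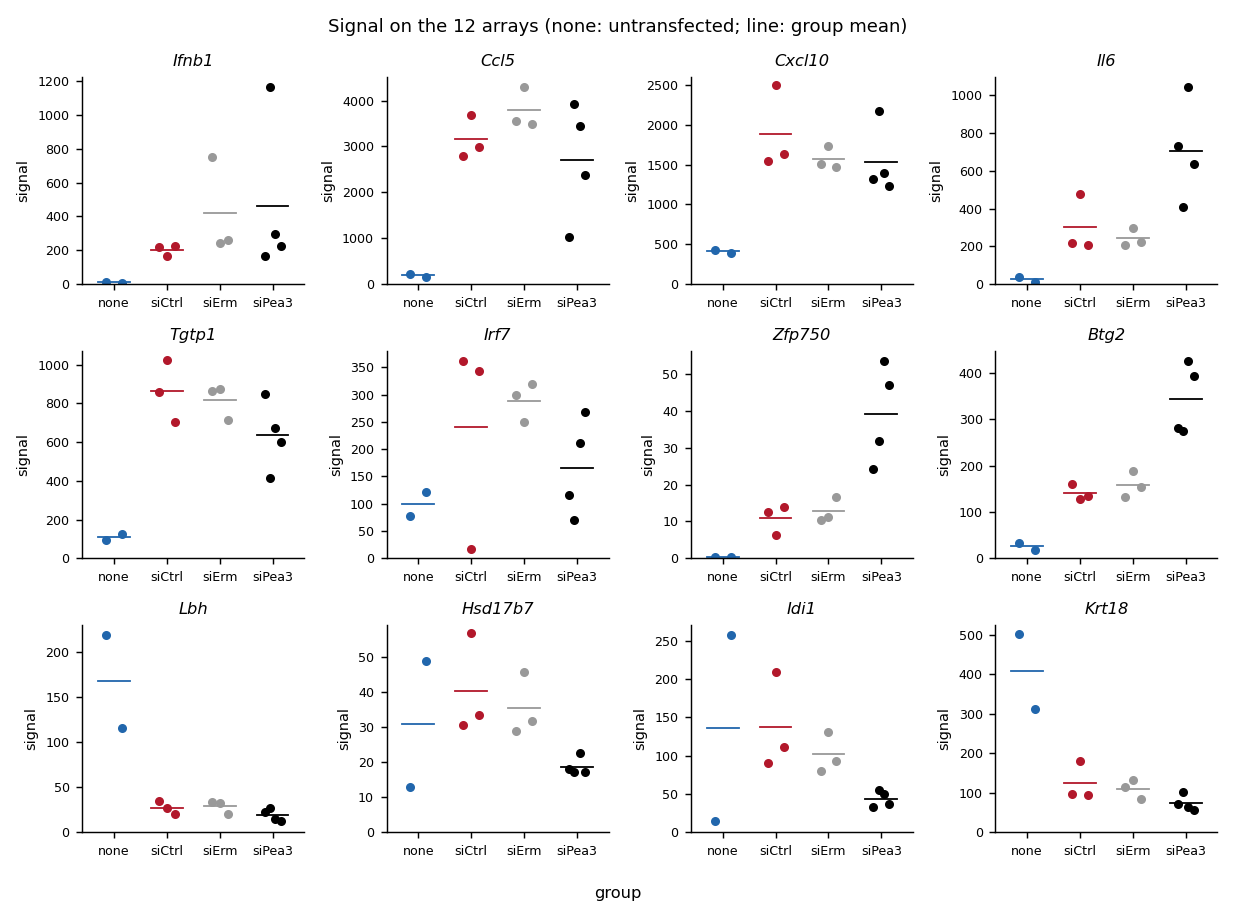
Deposited signal (linear axis from 0) of 12 genes on all 12 arrays, 1 point per array with each group's mean as a line, for untransfected (none), siCtrl, siErm and siPea3 cells. For Ifnb1, Ccl5 and Cxcl10 every array with an siRNA lies above both untransfected arrays, Irf7 is low on siCtrl 2, and Idi1 and Hsd17b7 differ between the untransfected arrays.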

How the data were processed

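RNA of MMT cells was measured on single-colour Applied Biosystems AB1700 arrays (digoxigenin label, chemiluminescence), with RT-IVT amplification, per the labels' protocols. Per the file headers, the deposited intensity is an assay normalized signal, and its scale is linear. The second deposited column, a coefficient of variation, was taken as the ratio of noise to signal. A status code per measurement was deposited too, and values with a status over 4096 were left out as failed. How the authors corrected background or scaled arrays, and with what software, is not stated in the labels or headers. The intensities in the deposited series table equalled those of the separate array files in all 392662 filled values.

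No further scaling was applied before taking log2 of the intensities. A probe was detected on an array where the inverse of its coefficient of variation was 3 or more, and probes detected on fewer than 2 of the 12 arrays were dropped. This left 16726 probes, of which 16724 had a value in every group. Most of the 12 arrays are of transfected cells, so genes detected only after transfection were kept more easily than genes detected only without it. Probes were named through the annotation supplied for the array, 14411 with 1 symbol, 247 with several and 18354 with none. The test was that of limma 3.58.1 under R 4.3.3 (lmFit, eBayes, 12 arrays, 1 coefficient per group, no covariates), with 8 residual degrees of freedom and 3.06 prior ones and Benjamini-Hochberg adjustment over all tested probes. Errors of log2 changes are standard errors of that fit. The fit was tested on simulated data. Plots used matplotlib 3.10.9 (Python 3.11.15).

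Genes named are the 20 largest called rises, all called falls, the called members of each of 34 gene lists with up to 4 others of smallest p, a short set of interferon and PEA3 genes, and other called genes with 1 symbol. Dcn, H2-M3 and Tapbp were named after their values were seen. List counts take each gene's brightest probe, by its mean signal on the 12 arrays. The genes and lists were chosen with earlier results of these data known. Alternatives were other scalings (quantile, and median centring over all or over detected probes), no filter, an added 1 before log2, an intensity trend, array weights, only the 5 arrays, the replicate number as a block, and leaving out each of the 5 arrays. Leaving out siPea3 2 was added after seeing the data.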

Additional observations from a re-analysis of the deposited data

Results flagged for a closer look

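The signal of Ifnb1 in siPea3 cells was 1165 on siPea3 2, far from the other 3 siPea3 arrays at 169 to 294. On the linear deposited signals, the gap to the nearest of them was 0.875 of the group's whole range, past the critical value of Dixon's test for 4 arrays. The test was not run on the log2 scale that the fit uses, where such a gap is smaller. This is 1 of 9 genes whose siPea3 levels were examined, and chance flags about 1 in 20 groups. The value has no part in the test of siCtrl against untransfected cells except through the shared estimate of the spread. That array also had the smallest share of detected probes of the 12, 34.2%.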

How the results depend on the processing

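The count of 171 called probes was 289 with quantile normalization, 272 with median centring over probes detected on all arrays, 110 with no filter on dim probes, 83 with array weights and 0 with only the 5 arrays (1445 at an unadjusted p under 0.05). With the replicate block it was 100, with 1 of the 5 arrays left out 82 to 336, and without siPea3 2 177. Of the 30 calls made up of the 20 largest rises and the 10 falls, 17 held with array weights, 17 with the replicate block, 0 with only the 5 arrays, 15 to 19 with 1 of the 5 left out and 27 without siPea3 2. Of the list genes 37 were called, against 57 with an intensity trend, 22 with array weights, 22 with the replicate block, 0 with only the 5 arrays, 19 to 41 with 1 of the 5 left out and 34 without siPea3 2. Deviations from the group means correlated across probes at r = 0.080 and 0.067 for the siCtrl and untransfected arrays of the same number. For the siErm and siPea3 arrays this was not computed. Among the siErm arrays, siCtrl 1, 2 and 3 each correlated best with the one of the same number (r = 0.976, 0.956 and 0.971, log2 signal of the filtered probes). Among the siPea3 arrays only siCtrl 1 did so. What arrays of the same number share was not tested, so calls lost under the block are given without a reading. The cause of the shifts in these counts was not tested.

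Across 140 named genes and 15 alternatives, 1654 of 2100 values kept their direction and side of the threshold, 351 lost the call, 70 gained one and 25 changed sign. Those 25 belong to genes that were not called. With 1 array left out, their log2 changes ran from -1.26 to 0.93 for Ago2, -0.57 to 1.73 for Aurkb, -3.13 to 0.11 for Chac1, -0.076 to 1.06 for Dcn, -0.15 to 0.45 for Etv1, -4.01 to 0.49 for Etv5, -0.79 to 0.89 for H2-M3, -0.33 to 1.59 for Hsd17b7, -1.01 to 3.16 for Idi1, -1.15 to 0.80 for Ifih1, -0.099 to 0.17 for Irf3, -0.35 to 1.86 for Irf7 and -0.63 to 0.81 for Tapbp. With array weights the value was 0.53 for H2-M3, 0.45 for Tapbp, 0.24 for Ifih1 and -0.014 for Irf3, and with the replicate block -0.00118 for Irf7, and with quantile normalization 0.012 for H2-M3. With 2 untransfected arrays, precision is limited by their number, and probes near background add to that. Array scaling shifted the median of all probes by less than 0.1 on the log2 scale.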
